A study of Mus musculus with 2 samples.

Results

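The genes of the mitochondrial genome were described in the nucleoplasmic RNA (RNA of the soluble nuclear fraction) of mouse bone-marrow-derived macrophages. The members were all genes whose symbol starts with mt-, which are 37 of 55536 annotated genes: 13 mRNA genes, 2 rRNA genes and 22 tRNA genes. Primary C57BL/6J cells were used that had received Lipid A, the part of bacterial lipopolysaccharide that Toll-like receptor 4 recognises, at 100 ng/ml for 60 min. Total RNA was sequenced after ribosomal RNA depletion in 2 biological replicates, which the labels tie to the same donor label, with 1 µg of starting RNA for replicate 1 and 500 ng for replicate 2. Both replicates belong to a single group with no untreated or other control, so each library's value is given, means carry the SD over the 2 libraries, and no test was possible. The sample descriptions name the nucleoplasm and the fraction label names the nucleus, while mitochondria lie in the cytoplasm. No label gives a measure of the purity of the fraction.

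The mitochondrial genome is a small circle that is transcribed from both strands into long RNAs, which are then cut at the tRNAs that lie between most of the rRNAs and mRNAs. Transcription from the heavy-strand promoter gives both rRNAs, most tRNAs and all mRNAs except mt-Nd6, and transcription from the light-strand promoter gives mt-Nd6 and the remaining tRNAs. The mRNAs encode core subunits of respiratory complexes I, III and IV and of ATP synthase (complex V), and all other proteins of the organelle are imported. In the annotation of the files (GENCODE M21 on mm10), 9 members were light-strand genes, annotated on the minus strand of chromosome M, and 28 were heavy-strand genes, annotated on the plus strand. The light-strand genes were mt-Nd6 and 8 tRNA genes. The heavy-strand genes were 12 mRNA, 2 rRNA and 14 tRNA genes.

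The gene tables held 21115765 expected counts on annotated genes in replicate 1 and 15607391 in replicate 2, against 29697192 and 26960161 estimated counts in the second transcript tables. Macrophage markers were present: 8 of 8 had a TPM (a share of transcripts corrected for length) between 20.2 and 1976, with sums of 5841 and 4918 in replicates 1 and 2. Of 23 markers of lymphoid cells, neutrophils, fibroblasts, erythroid cells and megakaryocytes, 22 lay under a TPM of 1 in both libraries, 8 of them at 0 counts, and their sums were 3.93 and 3.91. The highest was the neutrophil gene S100a9 at 1.34 and 0.87.

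Whether the deposited counts keep the strands apart bears on every value of a light-strand gene, since heavy-strand RNA runs opposite to those genes. The sources used here do not state the strand setting. Single-exon processed pseudogenes of at least 300 bases inside an intron of a protein-coding gene with a TPM of at least 20 were therefore split by orientation. The 88 that lie opposite to their host had medians of 53.7 and 36.1 expected counts per kb in replicates 1 and 2, with lower quartiles of 13.6 and 10.5. The 59 on the strand of their host had medians of 48.5 and 32.1 and lower quartiles of 5.89 and 2.62. For single-exon genes of the annotation class TEC, the medians were 117 and 81.6 over 22 opposite genes and 168 and 124 over 156 genes on the host's strand. Opposite pseudogenes were thus about as well covered as those on the host's strand, although pseudogenes can also share reads with their parent genes. Opposite TEC genes had lower medians but were still covered. In the second transcript table the pseudogene medians were 124 and 106 opposite and 106 and 74.4 on the host's strand. For TEC genes they were 223 and 208 opposite and 261 and 240 on the host's strand. The check did not show that these counts separate the strands. It cannot decide the question, since counts were not scaled to the level of the host and no genes of known strand setting were compared. RNA of the light-strand genes and RNA of the heavy strand across the same bases are thus not taken as told apart here.

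All members together took 4.05% and 5.74% of the expected counts in replicates 1 and 2 (4.90 ± 1.20%, SD, n = 2). The share was higher in replicate 2, so a single figure for the fraction is uncertain by about that difference. In the gene table, 15 of 37 members had at least 3 counts, namely all mRNA and rRNA genes. The 22 tRNA genes, 59 to 75 bases long, were listed there with an effective length of 0 and no counts, so tRNA values below come from the second transcript table, in which 34 members had at least 3 counts in both libraries. Light-strand genes held 5.92% and 3.83% of the members' expected counts, and heavy-strand genes the rest. The light-strand share was 4.88 ± 1.48% (SD, n = 2), lower in replicate 2, and all of it was mt-Nd6, since that table gives the tRNA genes no counts. By TPM the share was 13.0% and 7.89%, and with the nuclear copies described below added to the heavy-strand genes it was 4.72% and 3.02% of counts.

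Several heavy-strand mRNAs have near-identical copies in the nuclear genome, and this decides what their own counts mean. On mm10, 7 genes annotated as unprocessed pseudogenes lie in a row on the minus strand of chromosome 1, chr1:24611535-24616197, a stretch of 4663 bases. They follow the mitochondrial gene order: Gm29216 matches mt-Co1, Gm28661 mt-Co2, Gm10925 mt-Atp6, Gm28437 mt-Co3, Gm28438 mt-Nd3, Gm10222 mt-Nd4l and Gm28439 mt-Nd4. Gm28661 matched mt-Co2 over 681 bases without a mismatch, and Gm10925, Gm28437, Gm10222 and Gm28439 also had 0 mismatches over 678, 783, 294 and 876 bases. The matches covered nearly the full length of mt-Co2, mt-Atp6, mt-Co3, mt-Nd3 and mt-Nd4l, bases 1 to 876 of 1378 in mt-Nd4, and bases 1063 to 1545 of 1545 in mt-Co1. Among the members, mt-Atp8, mt-Nd1, mt-Nd2, mt-Nd5, mt-Nd6, mt-Cytb and both rRNAs had no annotated copy there. Copies that are not annotated as genes were not searched. The gene mt-Atp8 lies between mt-Co2 and mt-Atp6, whose copies Gm28661 and Gm10925 are neighbours in the row. The stretch of these copies, chr1:24613974-24615565, may thus hold a copy of mt-Atp8 that is not annotated. No counts were added to mt-Atp8 for such a copy. The 4 further copies of at least 95% identity on chromosomes 2 and 13 had at most 25.7 expected counts in a library.

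The first 60 bases of mt-Co2 (chrM:7013-7072, plus strand) and of Gm28661 (chr1:24615506-24615565, minus strand) are shown because no read within them can be assigned by sequence. All sequences are from the GENCODE M21 transcripts on GRCm38 (mm10), 5′ to 3′.
mt-Co2: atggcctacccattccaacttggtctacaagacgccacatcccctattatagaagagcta
Gm28661: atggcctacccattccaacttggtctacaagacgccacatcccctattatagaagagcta
The pair mt-Nd3 and Gm28438 differed at 1 of 345 bases, T3C, with the mitochondrial base first and positions counted from 1 at the start of the mt-Nd3 transcript. The capital marks it in the first 23 bases, chrM:9459-9481 on the plus strand and chr1:24613097-24613119 on the minus strand.
mt-Nd3: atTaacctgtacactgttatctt
Gm28438: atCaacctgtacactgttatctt
The pair mt-Co1 and Gm29216 differed at 1 of 483 bases, A1066T, near the left end of the match, shown at chrM:6390-6413 and chr1:24616165-24616188.
mt-Co1: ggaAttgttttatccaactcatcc
Gm29216: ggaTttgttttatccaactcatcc
Within the match, only reads across the differing base separate the genes of these pairs. Whether bases beyond the ends of the match differ was not tested, since only annotated transcripts were compared.

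Of the counts on members and copies together, the copies held 20.3% and 21.1% in replicates 1 and 2 of the gene table (20.7 ± 0.574%, SD, n = 2), but 8.74% and 11.9% in the second transcript table. The split differed from pair to pair. In the gene table mt-Co2, which encodes a catalytic subunit of complex IV, had 1970 and 1472 expected counts, against 77825 and 65929 on Gm28661, and so kept 2.47% and 2.18% of the pair. The second transcript table gave mt-Co2 34.9% and 12.8% of the same pair. For mt-Atp6, a membrane subunit of complex V, the gene table left 12.3% and 8.39% on the mitochondrial gene and the second table left 99.3% and 100%. For mt-Co3, another subunit of complex IV, the shares were 30.6% and 10.8% in the gene table and 93.1% and 77.4% in the second. Among the complex I genes, mt-Nd4l had 39.0% and 22.1% in the gene table and 100% in both libraries of the second. The same shares were 63.3% and 43.1% against 100% and 87.1% for mt-Nd3, and 72.5% and 69.6% against 65.2% and 56.6% for mt-Nd4. For mt-Co1 the gene table put 100% of the pair on the mitochondrial gene to 3 digits in both libraries.

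**Figure D1:**
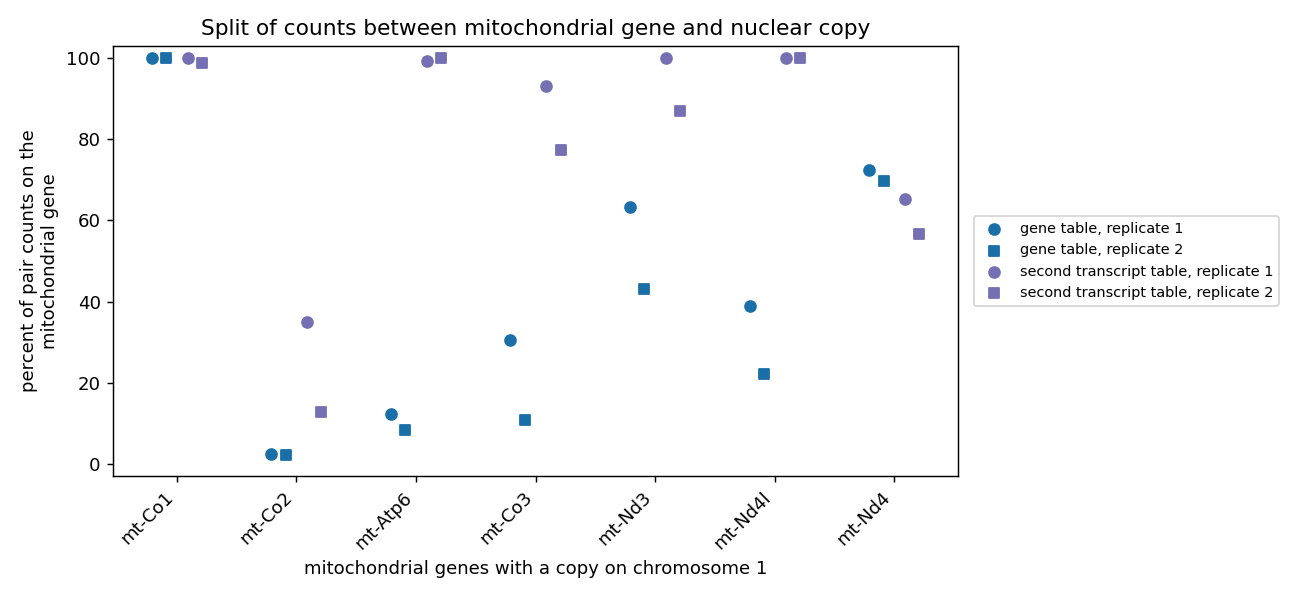
Percent of the counts of each pair that was assigned to the mitochondrial gene rather than to its copy on chromosome 1 (vertical axis), for the 7 pairs in genome order, by table (colour) and replicate (shape). For mt-Atp6 the gene table gives 12.3% and 8.39% and the second transcript table shows 99.3% and 100%, while mt-Co1 lies near 100% in both tables.

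The sum of a pair was far steadier than its split. Pair sums in the second table were 1.10 to 1.20 times those of the gene table in replicate 1. In the same replicate the mRNAs with no annotated copy on chromosome 1 were 1.08 to 1.22 times as high, with mt-Atp8 at the upper end. In replicate 2 the ratios were 1.33 to 1.62 for pair sums and 1.30 to 1.55 for the mRNAs with no such copy. For the mitochondrial genes of the pairs alone, the ratios ran between 1.02 and 15.6 in replicate 1 and between 1.11 and 16.8 in replicate 2. The deposited posterior means show the same doubt within the gene table: mt-Co2 had 7919 with a posterior SD of 1687 in replicate 1 and 7179 with 1646 in replicate 2, several times its expected counts. Genes with no annotated copy, such as mt-Cytb and mt-Nd6, had a posterior SD of 0. Unless stated otherwise, levels of the paired genes are therefore given with the counts of the copy added, which is an upper limit for the mitochondrial gene if the nuclear copy is transcribed at all.

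Among light-strand genes, mt-Nd6 is the only mRNA, a complex I subunit at chrM:13552-14070 that overlaps the end of mt-Nd5 on the other strand by 14 bases. It had 50649 and 34305 expected counts in replicates 1 and 2, a TPM of 6632 and 4869. Its rank was 3 of the 13 mRNAs by TPM in both libraries, and lay above the median of the 12 heavy-strand mRNAs by 1.26 and 0.75 on the log2 TPM scale (1.00 ± 0.36, SD, n = 2). That distance depended on the length correction and on the nuclear copies. As a density, in expected counts per kb of annotated length scaled to 1000000 counts on annotated genes, mt-Nd6 had 4622 and 4235. Its log2 distance from the heavy-strand median was 1.37 and 0.41 on this scale with the copies left out. The heavy-strand mRNAs with the counts of their copies added had medians of 3502 and 5091. The difference from the heavy-strand median was then 0.40 in replicate 1 and -0.26 in replicate 2 on the log2 scale (0.07 ± 0.47, SD, n = 2), and the rank of mt-Nd6 was 3 and 9. Its density was 1.21 and 0.856 times that of mt-Nd5 and 1.39 and 0.809 times that of mt-Cytb. These heavy-strand neighbours have no annotated copy on chromosome 1. With the copies counted, mt-Nd6 was thus within the range of the heavy-strand mRNAs and on no fixed side of their median. Its counts may hold RNA of the heavy strand across the same bases.

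Of the 12 heavy-strand mRNAs, mt-Co1, the largest catalytic subunit of complex IV, at chrM:5328-6872, was the highest per kb in both libraries. Without its copies it had 325600 and 361337 expected counts in replicates 1 and 2, a density of 9980 and 14985, against 9982 and 14988 with them. It was 3.16 and 2.74 times as dense as mt-Nd1, a complex I subunit upstream of it, which had 63841 and 81634 counts. Alone, the 12 genes spanned a range of 73.2-fold and 109-fold in density, with mt-Co2 at the low end at 136 and 138. With the copies added, mt-Co2 reached 5525 and 6316, and the range fell to 10.1-fold and 10.8-fold. Over the mRNAs longer than 500 bases it was 6.02-fold and 5.51-fold, between mt-Co1 and mt-Nd2.

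**Figure D2:**
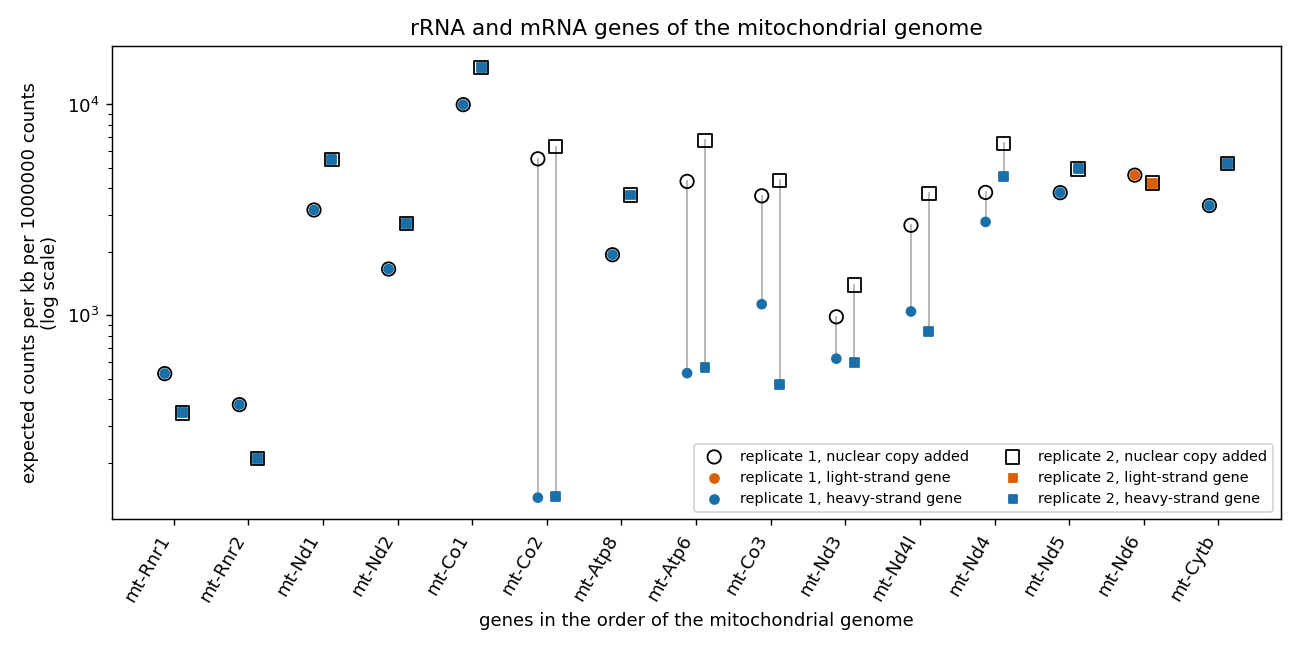
Density, in expected counts per kb of annotated length scaled to 1000000 counts (log axis), of the 15 rRNA and mRNA genes in genome order, for replicate 1 (circles) and replicate 2 (squares). Filled marks are the gene alone (orange for the light-strand gene mt-Nd6, blue for heavy-strand genes) and open marks include the nuclear copy, which lifts mt-Co2 to 5525 and 6316, while alone it lies at 136 and 138.

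The complex IV subunits together held 44.4% and 42.8% of the mRNA counts with copies added in replicates 1 and 2, and the 7 complex I subunits, mt-Nd6 among them, 41.2% and 41.4%. Cytochrome b of complex III, mt-Cytb at chrM:14145-15288, had 80129 and 93446 expected counts and 7.63% and 8.30% of the total. Both complex V subunits held 6.70% and 7.43%. These shares differed between libraries by less than 2 percentage points. Without the copies, complex V had 1.92% and 2.02%, complex IV 41.6% in both libraries, and complex I 46.8% and 45.8%.

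Within complex I, the densities with copies added were spread widely. The gene mt-Nd4, at chrM:10167-11544, had 3827 and 6538 in replicates 1 and 2, and mt-Nd5, at chrM:11742-13565, had 3817 and 4948. The other heavy-strand subunits were lower in replicate 1: mt-Nd1 had 3159 and 5465, mt-Nd4l 2673 and 3783, mt-Nd2 1658 and 2720, and mt-Nd3 983 and 1390. By this density the gene mt-Nd3 was the lowest of the 13 mRNAs in both libraries, and mt-Nd2 was next. Their order depends on the use of annotated length. The effective length of mt-Nd3 was 145 and 136 of 348 bases, and that of mt-Nd2 832 and 822 of 1038. Density did not follow position along the heavy strand: Spearman's rho with the start coordinate was 0.00 and -0.09 over the 12 mRNAs of the 2 libraries, a description over genes that share a library and are no replicates.

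The complex V genes mt-Atp8 (chrM:7766-7969) and mt-Atp6 (chrM:7927-8607) share 43 bases and lie on a common mRNA. The shared bases, chrM:7927-7969 on the plus strand, are in capitals after the preceding 20 bases of mt-Atp8, because reads there could be counted for either gene.
mt-Atp8: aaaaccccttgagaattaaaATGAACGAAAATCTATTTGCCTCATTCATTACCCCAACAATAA
The capitals begin with the start codon of mt-Atp6. The gene mt-Atp8 had 8347 and 11846 expected counts in replicates 1 and 2, and mt-Atp6 with its copy 62070 and 71825. As densities these were 1938 and 3721 for mt-Atp8, and 4316 and 6758 for mt-Atp6. At 204 bases mt-Atp8 is shorter than the size range of 250 to 400 in the labels. The effective lengths imply shorter fragments than that range, since mt-Co1 had 1339 and 1329 of 1545 bases. For mt-Atp8 the effective length was 28.7 and 23.3 bases in replicates 1 and 2. Its TPM of 11925 and 21880 therefore depends on the length correction.

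The 2 rRNAs, the RNA cores of the small and the large subunit of the mitochondrial ribosome, lay well below the mRNAs in these rRNA-depleted libraries. The small-subunit rRNA mt-Rnr1, at chrM:70-1024, had 10663 and 5136 expected counts in replicates 1 and 2, and the large-subunit rRNA mt-Rnr2, at chrM:1094-2675, had 12590 and 5165. Both were lower in replicate 2. Together they held 2.72% and 1.15% of the members' counts. Per kb, the log2 ratio of the summed rRNAs to the summed heavy-strand mRNAs without their nuclear copies was -2.97 and -4.27, a difference of -3.62 ± 0.92 (rRNA minus mRNA, SD, n = 2). With the copies added it was -3.32 and -4.63. The second transcript table held 2.80 and 2.66 times as many counts for mt-Rnr2 and 1.43 and 1.71 times as many for mt-Rnr1 as the gene table. The labels do not say whether mitochondrial rRNA was a target of the depletion, so the values give what was left after it.

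Light-strand tRNA genes had more counts than heavy-strand ones in both libraries. In the second transcript table the 8 light-strand tRNA genes had 1537 and 1345 estimated counts in replicates 1 and 2, against 132 and 299 over the 14 heavy-strand tRNA genes. Light-strand genes thus held 92.1% and 81.8% of tRNA counts (87.0 ± 7.27%, SD, n = 2). Their mean per gene lay above that of the heavy-strand genes by 4.28 and 2.95 on the log2 scale (3.61 ± 0.94, SD, n = 2). Counts per light-strand tRNA gene ran between 11 and 798 with a median of 107 in replicate 1, and between 18 and 383 with a median of 150 in replicate 2. For heavy-strand tRNA genes they ran between 0 and 25 with a median of 7 in replicate 1, and between 1 and 63 with a median of 17 in replicate 2. In both libraries 6 of the 8 light-strand genes lay above every heavy-strand one, and mt-Tq (21 and 18 counts) and mt-Ta (11 and 19) did not. All tRNA genes together were 0.150% and 0.119% of the members' counts in that table.

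**Figure D3:**
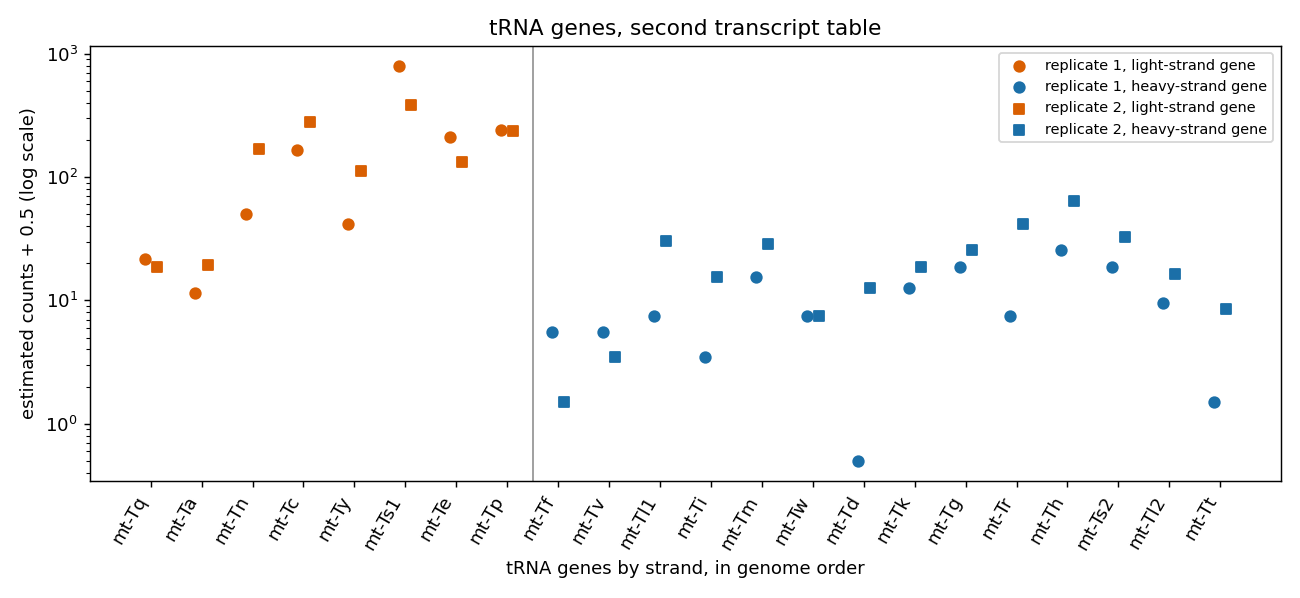
Estimated counts plus 0.5 (log axis) of the 22 tRNA genes in the second transcript table, light-strand genes left of the line and heavy-strand genes right of it, each in genome order. Circles are replicate 1 and squares replicate 2, and the light-strand genes mt-Ts1, mt-Tp, mt-Te and mt-Tc are the highest in replicate 1, at 798 to 164 counts, while the highest heavy-strand gene, mt-Th, has 25 and 63.

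The sequences of 4 light-strand tRNAs with high counts in replicate 1 are shown with those of the heavy-strand tRNAs that lie next to mt-Ts1 and mt-Tp, as neighbours with unlike counts. On the light strand these are tRNA-Ser 1 (mt-Ts1, chrM:6870-6938), tRNA-Pro (mt-Tp, chrM:15356-15422), tRNA-Glu (mt-Te, chrM:14071-14139) and tRNA-Cys (mt-Tc, chrM:5192-5257), all on the minus strand. On the heavy strand these are tRNA-Thr (mt-Tt, chrM:15289-15355) and tRNA-Asp (mt-Td, chrM:6942-7011), both on the plus strand. Capitals mark bases that overlap a neighbouring member.
mt-Ts1: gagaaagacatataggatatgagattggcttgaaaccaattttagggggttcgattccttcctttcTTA
mt-Tp: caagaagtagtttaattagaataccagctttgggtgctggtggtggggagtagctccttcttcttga
mt-Te: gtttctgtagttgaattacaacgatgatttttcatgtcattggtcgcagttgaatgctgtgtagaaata
mt-Tc: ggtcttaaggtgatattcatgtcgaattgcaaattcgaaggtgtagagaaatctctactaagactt
mt-Tt: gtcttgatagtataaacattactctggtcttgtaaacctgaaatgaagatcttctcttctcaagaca
mt-Td: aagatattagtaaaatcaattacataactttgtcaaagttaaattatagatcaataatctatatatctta
The highest, mt-Ts1, with 798 and 383 counts in replicates 1 and 2, lies opposite to the end of mt-Co1 and overlaps it by 3 bases. The heavy-strand gene next to it, mt-Td, had 0 and 12, where 0 counts leave room for up to 0.101 counts in 1000000. Likewise mt-Tp had 241 and 236 counts and mt-Tt, which ends at the base before it, 1 and 8. The gene mt-Te, which lies directly upstream of mt-Nd6 on the light strand, had 211 and 133, and mt-Tc 164 and 278.

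A tRNA gene is shorter than the fragments of the labels' size range, so a fragment that spans the whole gene also covers its neighbours. Which longer RNAs gave the tRNA counts was not tested, nor was the part that heavy-strand RNA plays in the counts of light-strand tRNA genes. At 3 counts or fewer in a library, mt-Tf, mt-Tv, mt-Ti, mt-Td and mt-Tt have no usable level, although mt-Tv and mt-Ti just reach the floor of 3 counts. For mt-Td and mt-Tt the comparison with their neighbours shows low counts only and gives no size of difference.

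The 2 libraries differed in the members, and the rRNAs and the heavy-strand mRNAs did so in opposite directions once the nuclear copies were counted. After normalisation over all genes (TMM), the log2 ratio of replicate 2 over replicate 1 had a median of 0.15 over the 15 members in the gene table with a mean count of at least 50, and of 0.00 over all 10088 such genes. Of these members 1, mt-Co3 at -1.21, lay beyond 2-fold, with 1.18% of all genes beyond it. That gene is one of those with a nuclear copy: with the copy added its ratio was 0.30, and 0 members lay beyond 2-fold, with 1.16% of all genes. The median of the members was then 0.56.

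With copies added, the ratio was above 0 for all 12 heavy-strand mRNAs, between 0.25 for mt-Co2 and 1.00 for mt-Atp8, with a median of 0.67. For 9 of them it lay above 0.52, the 95th percentile of all genes. The light-strand mRNA mt-Nd6, whose counts may hold heavy-strand RNA, had -0.07, below each of the 12. Its neighbours mt-Nd5 and mt-Cytb had 0.43 and 0.72. The rRNAs went the other way, with -0.56 for mt-Rnr1 and -0.79 for mt-Rnr2, both under the 5th percentile of all genes at -0.49. In the second transcript table with copies added, the heavy-strand mRNAs lay between 0.20 and 0.94, mt-Nd6 at 0.02, mt-Rnr1 at -0.64 and mt-Rnr2 at -1.21. There, 4 of 21 members with a mean count of at least 50 lay beyond 2-fold without the copies added, with 3.47% of all its genes: mt-Tn, mt-Ty, mt-Co2 and mt-Rnr2. With the copies added 3 did, a setting for which the share of all genes was not counted, and mt-Co2 was at 0.20. The order of the classes was the same, and fewer heavy-strand mRNAs, 3 of 12, lay above that table's 95th percentile of 0.75.

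In the second table the summed counts of the tRNA genes also differed: the light-strand genes had a log2 ratio of -0.05 and the heavy-strand genes of 1.32. The light-strand sum did not stand for its genes, with mt-Ts1 at -0.91 and mt-Te at -0.52, and mt-Tn, mt-Ty and mt-Tc at 1.88, 1.57 and 0.91, while mt-Tp had 0.12. The heavy-strand ratio rests on 132 and 299 counts. All these ratios are of counts and are not corrected for effective length, which for mt-Tp was 13.8 and 22.7 bases in replicates 1 and 2. By that table's TPM mt-Tp was lower in replicate 2, at 229 and 154. The genes mt-Tc (156 and 182) and, on the heavy strand, mt-Th (23.8 and 41.1) were higher there by TPM as by counts. The size of the tRNA ratios, and for some genes the direction, thus depends on the scale. The starting amount of RNA, the counted depth, the biosample and the effective lengths all differed between the 2 libraries. Their parts in these ratios cannot be told apart.

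**Figure D4:**
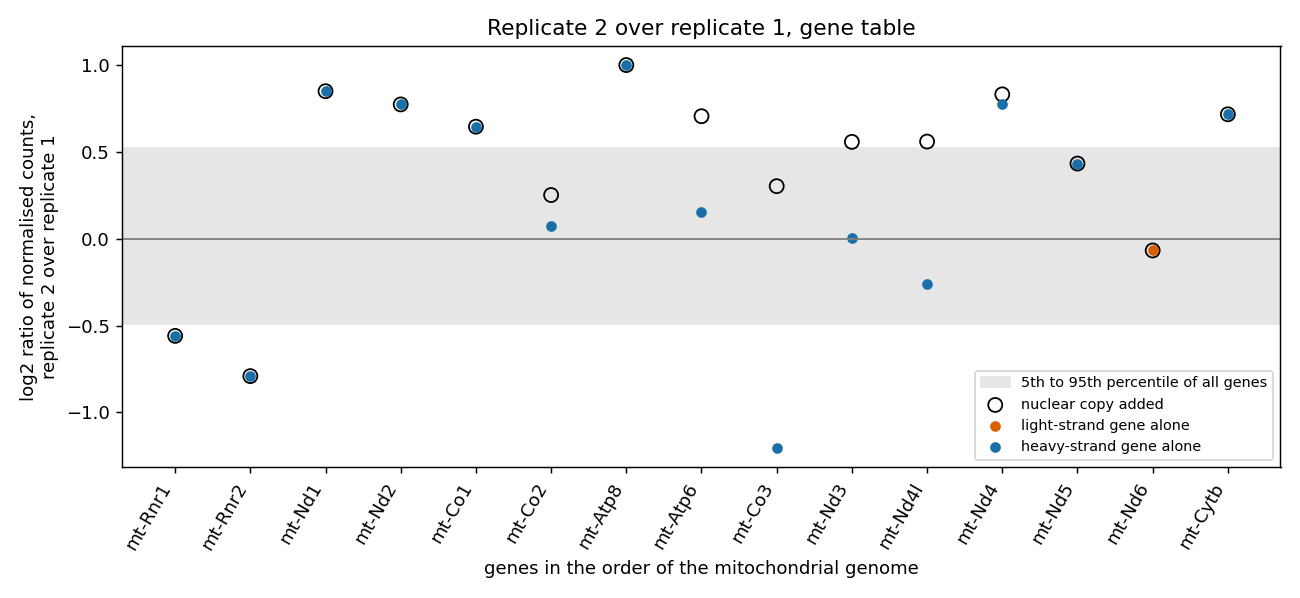
Log2 ratio of normalised expected counts, replicate 2 over replicate 1 (vertical axis), of the 15 rRNA and mRNA genes in genome order. Filled marks are the gene alone (orange for the light-strand gene mt-Nd6, blue for heavy-strand genes), open marks include the nuclear copy, and the grey band spans the 5th to 95th percentile of all genes, -0.49 to 0.52; with the copies added all 12 heavy-strand mRNAs lie above 0, mt-Nd6 at -0.07 and both rRNAs below the band.

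The transcripts of nuclear genes that serve mitochondrial transcription and RNA processing were measured in the same libraries at far lower TPM than the mitochondrial mRNAs. Of 38 symbols listed, 36 were in the annotation, and 25 of these reached a TPM of 1 in both libraries, or 8 of them a TPM of 5. Among all nuclear protein-coding genes, 39.2% reached 1 in both (8622 of 22015). A TPM of 5 in both was reached by 22.1% of them (4859). The median TPM was 4.40 over the 25 genes of the list and 7.33 over the protein-coding genes that reached 1 in both. None of the 24 with a mean count of at least 50 lay beyond 2-fold between the libraries, against 1.18% of all genes, and their ratios ran between -0.41 and 0.45.

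The TPM of Polrmt, the mitochondrial RNA polymerase, was 1.39 and 1.40 in replicates 1 and 2, and Tfam, whose product packages mitochondrial DNA and takes part in initiation, had 0.44 and 0.47. Mterf3, of the family of mitochondrial termination factors, was the highest of the list at 19.6 and 19.1. Polg, the catalytic subunit of the mitochondrial DNA polymerase, followed at 14.9 and 13.6, and Ssbp1, the single-stranded DNA-binding protein of the organelle, had 8.69 and 6.99. Fastk and Tbrg4, of a family that acts on mitochondrial mRNA stability and processing, had 12.2 and 10.4, and 9.67 and 11.96.

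Among genes for later steps, Mtpap, the mitochondrial poly(A) polymerase, had 9.77 and 8.68. Lrpprc, which stabilises heavy-strand mRNAs, had 5.67 and 3.86. Supv3l1, the helicase of the mitochondrial RNA degradation complex, had 7.38 and 5.52, and Rexo2, an oligoribonuclease, 9.75 and 7.49. Between the libraries the direction of some of these genes depended on the scale. Mterf3, Fastk, Mtpap, Rexo2 and Ssbp1 had lower TPM in replicate 2, but log2 ratios of normalised counts, replicate 2 over replicate 1, of 0.16, 0.15, 0.31, 0.24 and 0.08. On both scales Polg, Supv3l1 and Lrpprc were lower in replicate 2, with ratios of -0.03, -0.10 and -0.05, and Tbrg4 was higher, with 0.21. Polrmt had nearly equal TPM and a ratio of -0.37.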

How the data were processed

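Each library came with a gene table and 2 transcript tables, made on mm10 with the M21 annotation, per the deposited file list. No source used here gives the aligner, the quantifiers or a strand setting. The deposited expected counts of the gene table, with their posterior means and SDs, and the second table's estimated counts are the authors' values without normalization and need not be whole. The TPM values were divided by effective length and scaled to 1000000 per library by the authors. Of the deposited expected counts, 0.662% and 0.232% named no annotated mouse gene and were left out of library sizes.

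Second-table transcripts were summed per gene. Nuclear copies were annotated transcripts with at least 95% identity over at least 100 bases to a member (blastn 2.17.0); the plan named the chromosome, and member transcripts were used because no genome sequence was used here. For tRNAs the plan named the gene table, and the second was used because the first gave no counts. Replicate ratios used rounded counts, genes with a mean count of at least 50, TMM of edgeR 4.0.16 (R 4.3.3) and 0.5 added. The ratio step was also run on simulated counts. Those held no reads shared between members and copies and no difference in fragment length, so they do not test the ratios on these points. DESeq2 1.42.0 size factors were an alternative. All members, the copies with at least 50 counts, the 8 highest genes of the nuclear list and Polrmt, Tfam and Lrpprc could be named. The members and lists were chosen with earlier results of these data known. Floors of 3 counts cover counting error only, since PCR copies of a molecule were not told apart. Both replicates share a donor label, so their spread may be technical.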

Additional observations from a re-analysis of the deposited data

How the results depend on the processing

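With the nuclear copies added, an alternative chosen after seeing the data, the members' share of counts was 6.18%, the median replicate ratio 0.56 and the number of members beyond 2-fold 0. With copies added and annotated length, mt-Nd6 stood 0.069 above the heavy-strand median. The light-strand share was 10.4% by TPM. In the second transcript table the copies held 10.3%, the median replicate ratio was 0.55, and 34 members had at least 3 counts. By posterior mean counts, also added later, the copies held 18.5%. At a TPM of at least 5, 8 nuclear genes of the list passed. The cause of these shifts was not tested, apart from that of the copies, whose counts were added by construction. Every other alternative that gave a value stayed within 1 SD of the value reported or, for counts and ratios, close to it. For single libraries this says nothing about stability, since each of 2 values always lies within 1 SD of their mean. Without replicate 1 or replicate 2, the values were those of a single library: 4.05 to 5.74% for the members' share, 3.83 to 5.92% for the light-strand share, 0.75 to 1.26 for mt-Nd6, -4.27 to -2.97 for rRNA, 2.95 to 4.28 for tRNA, 20.3 to 21.1% for the copies, 15 and 15 members detected, and 25 to 27 nuclear genes. The gene table gave no tRNA value. No paired analysis was possible because both samples belong to 1 group. Depth limits the heavy-strand tRNAs, with 132 and 299 counts in all.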
